A study of Mus musculus with 2 samples.

Results

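GATA4 occupancy was examined at 10 genes of growth hormone and EGF receptor signalling in adult mouse liver. Occupied sites (OS), stretches of DNA where ChIP-seq reads for GATA4 exceeded the input DNA, were taken from the list that 2 peak callers, SPP and MACS2, had in common. An OS was assigned to a gene when its midpoint lay in the gene body or within 50 kb of it. By this rule 10 of the 4409 common OS belonged to the set, and 6 of the 10 genes had at least 1 of them. GATA4 is a zinc finger transcription factor that binds the motif WGATAR, in which W stands for A or T and R for A or G. Chromatin came from the whole liver of C57BL/6 x Sv129 mice aged 2 to 3 months by the labels, and was precipitated with the antibody GATA4 C-20. Input DNA from the same kind of liver received no antibody. The biological replicates of the study, each made from livers of 2 mice, were deposited as 1 ChIP sample, so no value below has a replicate or an error. The lists hold positions without read counts, and the depth behind a site is unknown. Each OS is called here by its gene and its number in the common list, and coordinates are those of mm9.

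Growth hormone from the pituitary binds its receptor Ghr on hepatocytes and activates the receptor-bound kinase Jak2, which phosphorylates the transcription factors Stat5a and Stat5b. Stat5 then switches on genes such as Igf1, the main hormone that the liver releases in response, and Cish and Socs2, whose products dampen the same pathway. Igfals encodes the acid-labile subunit that keeps Igf1 in the circulation. The EGF receptor Egfr is a receptor tyrosine kinase that is abundant on hepatocytes, and Errfi1 (Mig6) binds its kinase domain and inhibits it. Stat factors recognise the palindrome TTCNNNGAA, which is why that motif was searched beside WGATAR.

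The sequences that carry the finding are those of the earliest OS in the list at Ghr, Egfr and Igf1, and, further on, at Stat5b and Cish. They are given on the plus strand of the mm9 reference, with capitals marking each WGATAR match on either strand, so that CTATCT is AGATAG read on the minus strand. The region of Ghr OS 179 is chr15:3435491-3435702, that of Egfr OS 2399 chr11:16700703-16700827, and that of Igf1 OS 1020 chr10:87294910-87295068.
Ghr OS 179: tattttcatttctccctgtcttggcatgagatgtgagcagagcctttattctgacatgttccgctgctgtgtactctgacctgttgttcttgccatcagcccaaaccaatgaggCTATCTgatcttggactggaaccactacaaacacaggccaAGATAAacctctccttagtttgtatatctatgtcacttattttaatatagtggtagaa
Egfr OS 2399: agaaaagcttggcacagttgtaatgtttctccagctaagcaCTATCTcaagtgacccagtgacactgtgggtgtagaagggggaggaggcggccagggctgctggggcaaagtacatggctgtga
Igf1 OS 1020: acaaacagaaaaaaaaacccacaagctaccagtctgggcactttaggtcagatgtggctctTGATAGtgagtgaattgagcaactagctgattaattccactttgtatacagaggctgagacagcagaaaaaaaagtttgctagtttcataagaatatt

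Stat5b OS 3615 and Cish OS 2048 lay at promoters and held no WGATAR. For Stat5b OS 3615 the central 200 bp are given (chr11:100599624-100599823), with the only GATA core, TATC on this strand, in capitals. For Cish OS 2048, which lies in transcribed sequence, the 30 bases with both Stat palindromes are given (chr9:107199093-107199122), with the palindromes in capitals.
Stat5b OS 3615: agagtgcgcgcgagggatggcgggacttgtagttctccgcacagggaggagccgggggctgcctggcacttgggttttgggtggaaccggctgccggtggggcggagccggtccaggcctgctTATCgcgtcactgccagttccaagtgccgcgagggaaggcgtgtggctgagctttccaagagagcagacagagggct
Cish OS 2048: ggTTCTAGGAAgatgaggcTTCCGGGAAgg

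Of the 10 genes, 3 had 1 OS (Egfr, Stat5b and Cish), 2 had 2 OS (Ghr and Igf1) and Errfi1 had 3. Jak2, Stat5a, Socs2 and Igfals had none. Thus 6 of 10 genes had at least 1 OS, against 27.7% of the 22380 protein-coding genes of the annotation. At least 2 OS were found at 3 of 10 genes, against 9.15% of all, and at least 3 at 1 of 10, against 3.24%. Within 5 kb of the gene, 5 of 10 genes had an OS (Ghr, Egfr, Cish, Errfi1 and Igf1), while 11.3% of all genes did. In the gene body itself, 4 of 10 genes had an OS, against 7.67% of all. The genes were chosen with results of these data known, and no test was made on these counts.

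**Figure D1:**
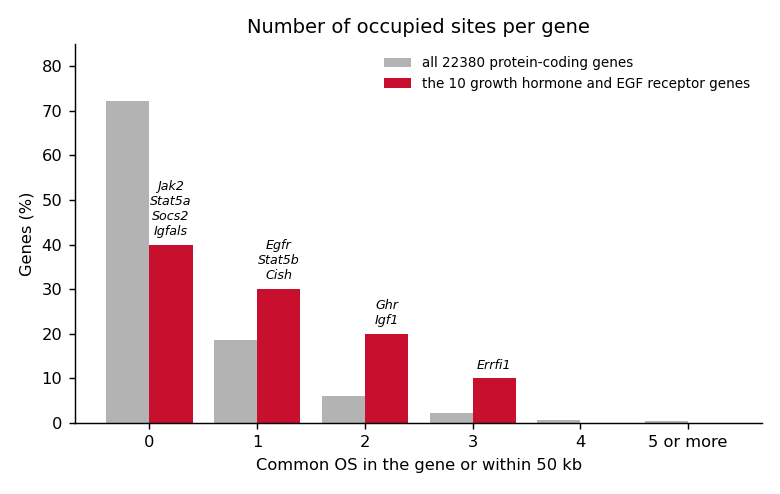
Share of genes (vertical axis, %) by the number of common OS in the gene body or within 50 kb (horizontal axis), for all 22380 protein-coding genes in grey and the 10 genes in red, with their names. The 10 genes hold 4 with no OS and 1, Errfi1, with 3.

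Long genes offer more room for an OS. Of protein-coding genes with a body of at least 100 kb, 36.2% had an OS within 50 kb, and Ghr and Egfr, the 2 of the set with such a body, both had one. For bodies of 10 kb to under 100 kb the share was 31.5%, and 3 of the 6 such genes of the set had an OS (Stat5b, Errfi1 and Igf1). For bodies under 10 kb it was 20.6%, and of the set Cish had an OS and Igfals did not. Per length of gene and flanks, Errfi1 had 26.1 OS per Mb, Igf1 11.2, Cish 9.37, Stat5b 5.88, Ghr 5.47 and Egfr 3.76. The 10 genes together held 6.12 OS per Mb over 1.63 Mb, all protein-coding genes with their flanks 2.33 and the genome 1.67.

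**Figure D2:**
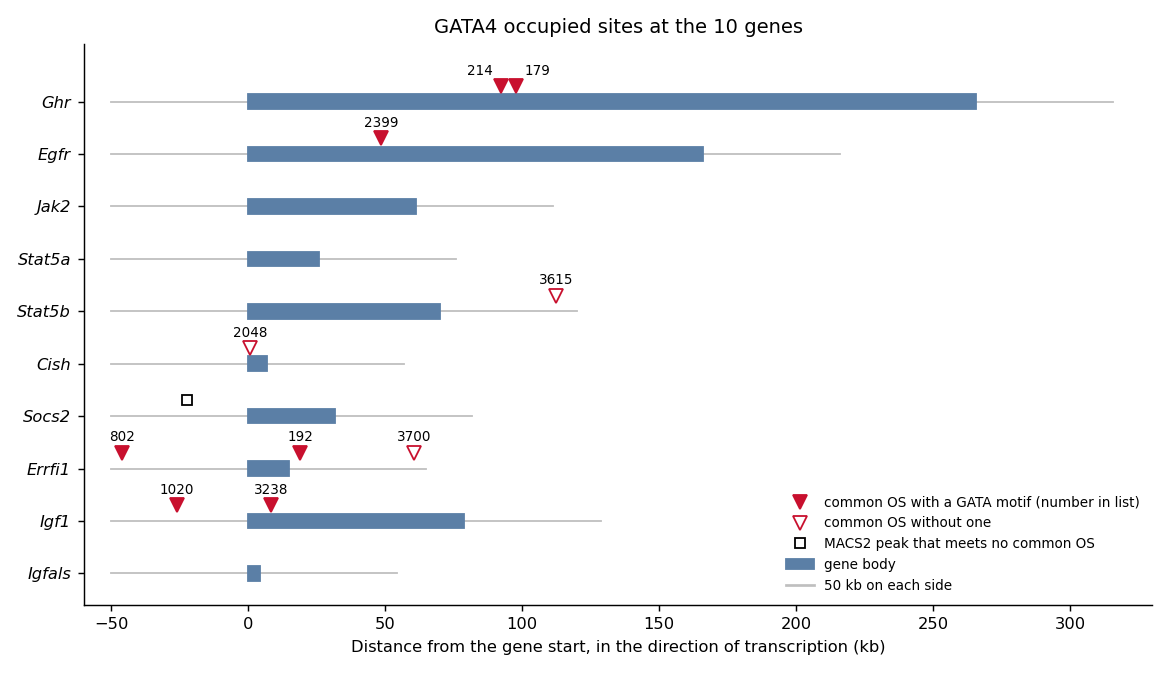
Each of the 10 genes drawn from its start in the direction of transcription (horizontal axis, kb), with the gene body as a bar, 50 kb on each side as a line, and the midpoint of each common OS as a triangle with its number in the list. The 3 open triangles, at Stat5b, Cish and Errfi1, are OS without WGATAR, and the square is the MACS2 peak 22176 bp upstream of Socs2.

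The growth hormone receptor gene had the earliest OS of the set. Ghr spans 265733 bp on the minus strand of chromosome 15 (3267760 to 3533492). Ghr OS 179 and Ghr OS 214 both lay in its body, 97896 and 92438 bp from the gene start, with midpoints 5458 bp apart. Of all common OS, 12.9% had another OS at this distance or nearer. Intron 1 of the 11-exon transcript Ghr-005 holds both OS. Their midpoints were spanned by 8 of the 10 annotated Ghr transcripts and fell in intron 1 of 7 of them. The nearest annotated Ghr start, that of Ghr-010, was 13952 bp from OS 179 and 19410 bp from OS 214.

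In the common list the Ghr sites stood at 179 and 214 of 4409, which is 4.06% and 4.85% of the way down. MACS2 had peaks of 334 and 331 bp over them, numbered 934 and 368 of 5867. The files do not say what the numbering follows, and by the study's methods SPP calls were sorted by signal and MACS2 calls by p-value. The order of the Ghr pair was therefore not the same in both lists, but each caller placed both early in its list, MACS2 at 15.9% and 6.27%. Each site held 2 WGATAR matches on opposite strands, with centres 40 bp apart in OS 179 and 65 bp apart in OS 214. The matches of OS 214 are shown with the bases around them, at chr15:3441014-3441043 and chr15:3441079-3441108, because a FOXA motif (TGTTTAC or TATTTAC, here on the minus strand) lay beside each.
Ghr OS 214, left match: gacagaggagcaTGATAAcaagagtaaaca
Ghr OS 214, right match: tgtaaacagtagCTATCTgcatgaaaggct

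Farther out, the Ghr locus held 5 more OS at 50 to 100 kb from the gene, numbered 185, 1054, 1809, 2138 and 3550. They lay 66560 to 91000 bp from it, near Sepp1, the gene of the plasma selenium carrier selenoprotein P. With them the locus had 7 OS within 100 kb, the most among the 10 genes.

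The other receptor, Egfr, had 1 OS. Egfr spans 165956 bp on the plus strand of chromosome 11 (16652206 to 16818161). Egfr OS 2399 lay 48559 bp downstream of the gene start in intron 1 of the 28-exon transcript Egfr-001, and the 3 transcripts that spanned its midpoint all had it in intron 1. The nearest other OS was 176474 bp away. At 125 bp it was, with Errfi1 OS 3700, the narrowest OS of the set, and its single WGATAR match was 18.5 bp from the midpoint. It stood at 54.4% of the common list, and its MACS2 peak of 419 bp had number 5179, at 88.3% of that list. It was therefore in the later part of both lists, unlike the Ghr pair.

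Jak2, the kinase that joins the growth hormone receptor to Stat5, had no OS within 50 kb. The nearest common OS, number 730, was 54351 bp from the gene and lay 24 bp from the start of Cd274, a ligand that restrains T cells. The site is thus just outside the limit of 50 kb, and the sites just inside it were Errfi1 OS 802 at 46058 bp and Errfi1 OS 3700 at 45654 bp. Stat5a had none either, and its nearest OS was 120942 bp away.

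Stat5b, the Stat5 form that carries most of the growth hormone response of liver, was assigned 1 OS. Stat5b OS 3615 (chr11:100599564-100599883) lay 42322 bp beyond the end of the gene and 194 bp upstream of the start of Rab5c, a GTPase of early endosomes. A further 7 protein-coding genes besides Stat5b and Rab5c lay within 50 kb of it, among them Kcnh4, Hcrt, Kat2a and Dhx58. It held 23 CpG dinucleotides in 320 bp and a GC content of 60%. WGATAR was absent from the OS itself and was found in its MACS2 peak no nearer than 781.5 bp from the midpoint. It stood at 82% of the common list, and its MACS2 peak of 1574 bp, the widest of the set, at 45.2% of that list. The assignment to Stat5b rests on distance, since the file names no target gene.

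The feedback inhibitor Cish had its OS at the promoter. The gene spans 6759 bp on the plus strand of chromosome 9 (107198357 to 107205115), and Cish OS 2048 (chr9:107199024-107199233) lay 771 bp downstream of the gene start. Its midpoint is in the 5′ UTR in exon 1 of transcripts Cish-001 and Cish-002, 83 bp from the nearest annotated start, that of Cish-201, and intron 1 of the noncoding gene Gm17040 overlaps it. The MACS2 peak over it was 1077 bp wide and held 5 of the 6 annotated Cish starts. No other common OS was within 270139 bp, the longest such gap in the set. It stood at 46.5% of the common list and at 13.9% of the MACS2 list.

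Cish OS 2048 was the only site of the 10 with 2 palindromes TTCNNNGAA, TTCTAGGAA and TTCCGGGAA, whose centres are 17 bp apart. It held neither WGATAR nor the shorter core GATA, and the nearest WGATAR in its MACS2 peak was 711.5 bp from the midpoint. Over all common OS, 21 of 4409 (0.476%) held 2 or more TTCNNNGAA, and 2 of the 289 without a GATA core did. At least 1 match was also met in 6.1% of windows of equal width 5 kb to the right of the OS. A match at a given OS is a description of its letters, and Stat binding was not tested. Across the set 2 of 10 OS held TTCNNNGAA, against 7.69% of all common OS, and the other was Errfi1 OS 192.

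Socs2, the other Stat5-induced inhibitor, had no common OS within 50 kb. The nearest lay 63084 bp away near Cradd, an adaptor of cell death signalling. A MACS2 peak of 898 bp (chr10:94901542-94902439) lay 22176 bp upstream of Socs2 between genes. It had number 4692 of 5867 in that list, and SPP had no peak there. Socs2 is thus the gene of the set whose count depended on the caller, with 11 MACS2 peaks against 10 SPP peaks assigned over all 10 genes.

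Errfi1, the inhibitor of the EGF receptor, had the most OS for its size, 3 around a body of 14974 bp on chromosome 4 (150228028 to 150243001). Errfi1 OS 192 lay 3988 bp beyond the gene end and 17807 bp from the nearest Errfi1 start. It was at 4.35% of the common list and 6.46% of the MACS2 list, and in the common list it stood between the Ghr pair. It held 1 WGATAR match, 1 TTCNNNGAA and 3 matches of the C/EBP motif TTGCNNAA. Errfi1 OS 802 (chr4:150181868-150182073) lay 46058 bp upstream of the gene between genes, and its WGATAR match was 3.5 bp from the midpoint, the nearest of the set.

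Errfi1 OS 3700 (chr4:150288593-150288717) was another promoter site. It lay 45654 bp beyond the gene end, 16 bp upstream of the start of Tnfrsf9, a costimulatory receptor of T cells, and 109 bp from that of Park7, a sensor of oxidative stress. It held no WGATAR and no GATA core, and its MACS2 peak held no WGATAR either. With 16 CpG in 125 bp its GC content was 66.4%, the highest of the set. Of the 3 OS assigned to Errfi1, 2 thus lay nearer to an Errfi1 start than to that of any other protein-coding gene.

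**Figure D3:**
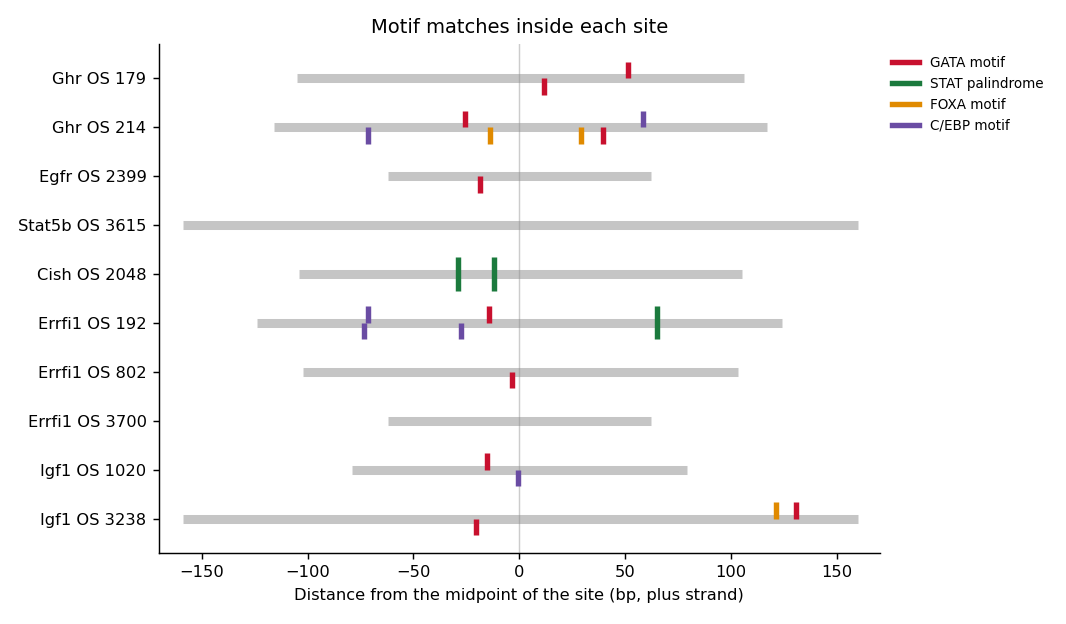
Motif matches in each OS by distance from its midpoint (horizontal axis, bp on the plus strand), with the grey bar showing the width of the OS, ticks above the bar the plus strand, ticks below it the minus strand, and the Stat palindrome drawn through it. The 3 promoter sites, Stat5b OS 3615, Cish OS 2048 and Errfi1 OS 3700, have no tick for WGATAR, the GATA motif drawn, and the core GATA of Stat5b OS 3615 is not drawn.

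Igf1, the growth factor through which much of the growth hormone effect on the body runs, had 2 OS around its start. The gene spans 78783 bp on the plus strand of chromosome 10 (87321010 to 87399792). Igf1 OS 1020 lay 26021 bp upstream, in intron 1 of the noncoding gene Gm16176. It had no CpG and a GC content of 37.7%, the lowest of the set. Igf1 OS 3238 (chr10:87329170-87329489) lay 8319 bp downstream of the gene start in intron 2 of the 5-exon transcript Igf1-201, and was spanned by all 9 Igf1 transcripts, in intron 1 of none. Their midpoints were 34340 bp apart.

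The callers ordered the Igf1 sites alike but at unlike depths of the list. OS 1020 stood at 23.1% of the common list and 44.9% of the MACS2 list. OS 3238 stood at 73.4% and 99.9%, and its MACS2 peak, number 5861 of 5867, was among the last that MACS2 kept. OS 3238 held 2 WGATAR matches on opposite strands 151 bp apart, at chr10:87329294-87329323 and chr10:87329445-87329474. They are shown because the right match, like those of Ghr OS 214, has a FOXA motif beside it, tgtttac.
Igf1 OS 3238, left match: cataagtcattcTTATCTccagttcccaag
Igf1 OS 3238, right match: gctgtttacatcAGATAAcgaaaactgaga

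Igfals had no OS within 50 kb. The nearest was 182537 bp away near Tmem204, so that the gene of the Igf1 carrier was the one farthest from GATA4 occupancy in the set. Of the hormone output of the pathway, Igf1 therefore had OS and Igfals did not, while of the receptor complex Ghr had OS and Jak2 did not.

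Read as a set, 7 of the 10 OS held WGATAR, against 82.9% of all common OS. Windows of equal width 5 kb to the right held it at 3 of the 10 and at 31.9% of all. Matches numbering 2 or more were found at 3 of 10 (Ghr OS 179, Ghr OS 214 and Igf1 OS 3238), against 34.7% of all. The 10 matches of the set read AGATAA 4 times, AGATAG 3 times, TGATAA 2 times and TGATAG 1 time, while over all OS these made up 44.6%, 17.5%, 26.8% and 11% of matches. The core GATA was present in 8 of 10, against 93.4% of all OS and 59.5% of the windows. The share of sites with WGATAR in the set was thus no higher than in the whole list.

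The 3 OS without WGATAR were the 3 that lay within 1 kb of the start of a protein-coding gene, a place where 16.6% of all common OS lay. Among all 730 OS at such starts 74.1% held WGATAR, and among the 3679 farther away 84.6% did. In the set this was 0 of 3 (Stat5b OS 3615, Cish OS 2048 and Errfi1 OS 3700) and 7 of 7. The 3 promoter sites had 16 to 23 CpG and a GC content of 60% to 66.4%. The other 7 had 0 to 6 CpG and a GC content of 37.7% to 59.2%. Over all OS the median number of CpG was 8 at starts and 2 elsewhere, and 10.5% and 5.76% lacked even the core GATA.

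The order of the lists was also set beside this split. When the 4409 common OS were ranked by their MACS2 numbers, the 3 promoter sites stood earlier than in the common list, Cish OS 2048 at 834, Errfi1 OS 3700 at 2506 and Stat5b OS 3615 at 2641. Of the other 7, Errfi1 OS 802 alone stood earlier, at 736. Egfr OS 2399 moved back to 4220, Igf1 OS 1020 to 2626 and Igf1 OS 3238 to 4408. Over all OS, 66.6% of those at a start and 50.2% of the others ranked earlier by MACS2. How far a site can move depends on its place in the common list. Stat5b OS 3615 and Errfi1 OS 3700 stood at 82% and 83.9% of it. Ghr OS 179, Errfi1 OS 192 and Ghr OS 214 stood at 4.06% to 4.85%. Moves were not counted among OS of like number, so the split in direction cannot be told apart from this. The promoter sites also had MACS2 peaks of 576 to 1574 bp, while those of the other 7 were 331 to 754 bp wide.

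**Figure D4:**
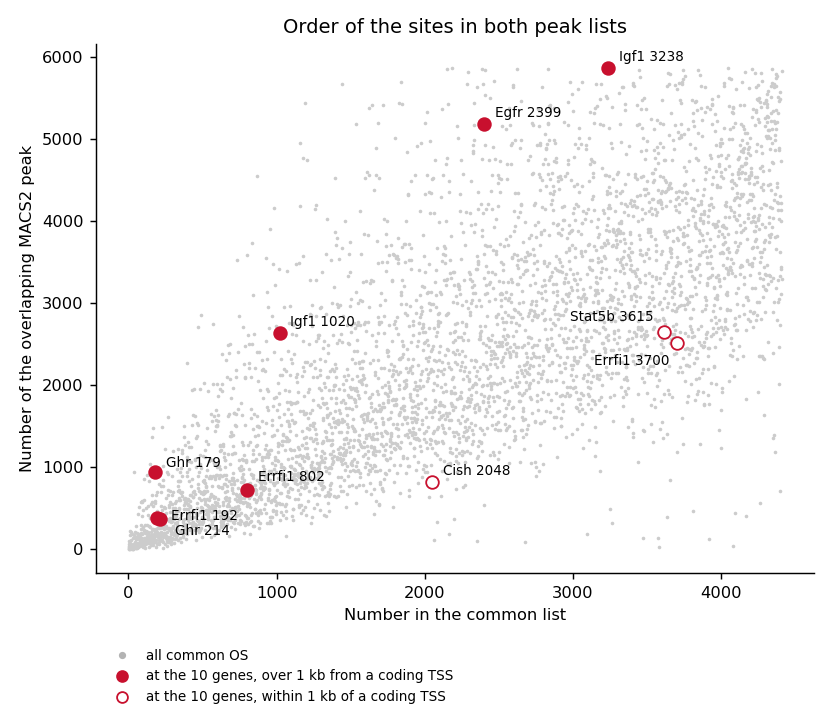
Number of each common OS in the common list (horizontal axis) against the number of the MACS2 peak over it (vertical axis), with all OS in grey and those at the 10 genes in red, filled where more than 1 kb from the start of a protein-coding gene and open within it. On the vertical axis the open points of Cish, Stat5b and Errfi1 OS 3700 lie at 814, 2652 and 2509. Egfr OS 2399 and Igf1 OS 3238 lie near the top, at 5179 and 5861.

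In list order, 5 of the 10 OS were among the first 1102 of the common list (Ghr OS 179, Errfi1 OS 192, Ghr OS 214, Errfi1 OS 802 and Igf1 OS 1020) and 1, 2 and 2 in the following stretches of like size. Their median number was 1534, with a range of 179 to 3700, and the median over all OS is 2205. For the 7 OS whose nearest start of a protein-coding gene is that of the member, the median number was 802. Median width was 211 bp against 190 bp, GC content 48.4% against 49.4%, and distance to the nearest start of a protein-coding gene 15880 bp against 14543 bp. The nearest other OS was a median of 34340 bp away, against 55555 bp. By these measures the 10 OS were spread over the range of the whole list.

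How far an OS can be tied to its gene varied. Within 50 kb, 5 of the 10 OS had no protein-coding gene but the member (Ghr OS 179, Ghr OS 214, Errfi1 OS 802, Igf1 OS 1020 and Igf1 OS 3238), and 2 had 4 or more (Stat5b OS 3615 and Cish OS 2048). Over the whole list 34.7% of OS had 1 protein-coding gene within 50 kb and 17.6% had 4 or more. Egfr OS 2399 had 1 other gene, Gm17664, whose start was 38502 bp away. The nearest start of a protein-coding gene was that of the member itself for 7 of the 10 OS, at Ghr, Cish, Errfi1 and Igf1, and that of another gene for Egfr OS 2399, Stat5b OS 3615 and Errfi1 OS 3700.

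Among 69 other genes of these pathways, 29 had a common OS within 50 kb and 13 within 5 kb, against 27.7% and 11.3% of all protein-coding genes. On the growth hormone side it was 17 of 33, and on the EGF side 12 of 36. Inhibitors and phosphatases of the growth hormone pathway had OS at 6 of 10 and the IGF axis, mostly binding proteins and Irs adaptors, at 9 of 12. Within 5 kb these counts were 3 of 10 and 3 of 12. Igfbp2 and Igfbp5 of the IGF axis share OS 3350, the only OS of Igfbp5. Other receptors and kinases of the growth hormone side had OS at 0 of 5 and other STAT genes at 0 of 2. On the EGF side, ligands and sheddases had OS at 5 of 13, inhibitors at 3 of 9, adaptors at 3 of 11 and the receptors Erbb2 to Erbb4 at 1 of 3, that one being Erbb3. The counts on the EGF side, such as 12 of 36, 3 of 9 and 3 of 11, were near the share of 27.7% over all genes.

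Among the phosphatases, Ptpn1, which removes phosphate from Jak2, was assigned 3 OS (417, 3032 and 3365), of which 417 lay 43924 bp upstream of its start. OS 3365 lay 472 bp from the start of its neighbour Fam65c and 59098 bp from the nearest Ptpn1 start. Ptpn11, the phosphatase SHP2, had OS 4098 97 bp upstream of its start. Of the EGF receptor ligands, Egf had OS 2884 780 bp from an annotated start and OS 2580 42968 bp from one. Nrg4, the ligand of ErbB4, had 3 OS (258, 2902 and 3680), and 258 was 11 bp from the start of its neighbour AI118078. The inhibitors Spry1 and Spred2, which restrain signalling from Ras to MAP kinase, had 2 and 3 OS. Spry1 OS 3400, 75 bp upstream of the Spry1 start, held no WGATAR, as at the promoter sites of the set, while Ptpn11 OS 4098 held 1 match and Egf OS 2884 held 2.

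Whole liver holds several cell types. Genes that mark hepatocytes had an OS within 50 kb at 6 of 10, genes of endothelial cells at 9 of 10, Kupffer cells 1 of 7, stellate cells 1 of 6, cholangiocytes 0 of 5, T and B cells 1 of 4, and cardiomyocytes, which liver lacks, 3 of 5, against 27.7% of all protein-coding genes. The cardiomyocyte genes Myh6 and Myh7, which lie side by side, share OS 1427, so that the cardiomyocyte count rests on 2 OS. Within 5 kb the counts were 3 of 10 for hepatocytes, 8 of 10 for endothelial cells and 0 of 7 for Kupffer cells. They were 1 of 6 for stellate cells, 0 of 5 for cholangiocytes, 1 of 4 for T and B cells and 0 of 5 for cardiomyocytes. The share of all protein-coding genes within 5 kb was 11.3%. These counts are of occupancy and not of expression. In which cells the OS at Ghr, Egfr, Errfi1, Igf1, Cish and Stat5b were occupied was not tested, and a site held in few cells cannot be told apart from one held weakly in many.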

How the data were processed

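GATA4 ChIP-seq of whole liver was deposited as 1 ChIP sample with 3 peak lists, and the input sample entered only through the peak calls. Per the labels and the study's methods, the authors aligned reads to mm9 with Bowtie 0.12.7, kept uniquely placed reads, called peaks with SPP and MACS2 2.0.10, set thresholds by irreproducible discovery rate on replicates and pooled reads, and intersected the lists with bedtools 2.16.1, keeping SPP coordinates. The deposited score is 1000 for every peak and was not used. List numbers run in file order.

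There were 4409 common, 4811 SPP and 5867 MACS2 peaks. Midpoints were set against GENCODE M1 on the same build, with coordinates counted from 1. Motifs were matched exactly on both strands in Python 3.11.15 with numpy 2.4.6 and drawn with matplotlib 3.10.9. The motifs searched were WGATAR (W for A or T, R for A or G, each match also one of the core GATA), TTCNNNGAA, and, added after the files were seen, FOXA, C/EBP, HNF4 (CAAAGTCCA), AP-1 (TGANTCA), ETS (CCGGAA) and E-box (CANNTG). The split by promoters and the ranking by MACS2 number were also added then. On simulated data 200 of 200 overlap queries and 200 of 200 planted motifs were recovered.

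The 10 genes and the lists were chosen with earlier results of these data known, so the results are counts beside those of all genes or OS, with no test. All 10 genes and their OS are named. Other pathway genes are named where at least 3 OS lay within 50 kb or 1 lay within 1 kb of a start. Erbb3, the genes with peaks of MACS2 or SPP alone and the pathway genes and markers with a shared OS were named after their values were seen. The sequences shown are of the earliest OS of each gene, except Errfi1, whose sequence is not reported here, and of OS within 1 kb of its start, and further matches were chosen after their sequence was seen. No read counts were available here, so no interval could be given for a peak.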

Additional observations from a re-analysis of the deposited data

How the results depend on the processing

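The number of OS assigned to the 10 genes was 10, and it became 6 within 5 kb, 6 within 10 kb and 24 within 100 kb, and 6 when the first 50% of the list was used. In that part of the list, 3 genes in place of 5 had an OS within 5 kb. WGATAR was found in 7 OS and in 3 windows 5 kb to the right, and TTCNNNGAA in 2 OS, 1 of them in the central 100 bp, and in 1 window. All 10 OS met a MACS2 peak by at least 1 bp, but 3 did so when at least 50% of each peak had to be covered, since MACS2 peaks are wider. The median list number of 1534 became 802 for the 7 OS nearest to a start of the member. The values under the other alternatives were within 1.5 times those reported. No paired analysis was possible because the replicates were deposited as 1 sample and no test was made. The number of reads at each site is unknown here, so an OS that is missing at Jak2, Stat5a, Socs2 or Igfals was not called in these lists, which does not show that GATA4 is absent there.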

Other observations

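A FOXA motif lay close to WGATAR in the 2 OS of the set that held both. FOXA factors are forkhead proteins that open chromatin at liver enhancers. In Ghr OS 214 the centres of the motifs were 11.5 and 10.5 bp apart, and in Igf1 OS 3238 they were 9.5 bp apart. Over the 349 common OS with both motifs (7.92% of 4409) the median distance was 41.5 bp, and 47 of 372 distances (12.6%) were no larger than the largest of the set. FOXA matches were in 2 of 10 OS, against 9.03% of all. The C/EBP motif was in 3 of 10 (Ghr OS 214, Errfi1 OS 192 and Igf1 OS 1020), against 12.7%, and the E-box in 6 of 10, against 60.3%. In the windows 5 kb to the right, FOXA was in 0 of 10, C/EBP in 2 and the E-box in 9. Over all such windows the shares were 6.19%, 8.62% and 65%. The ETS motif was in Cish OS 2048, where it shares bases with the palindrome TTCCGGGAA, and in 8.94% of all OS. The HNF4 motif (1.16% of all OS) and the AP-1 motif (7.55%) were in none of the 10.

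MACS2 alone called peaks at 13 of the other pathway genes. On the growth hormone side there was 1 at Prlr, the prolactin receptor, 1 at the insulin receptor substrate Irs2, 2 at the feedback inhibitor Socs3, 2 at the adaptor Sh2b3, and 2 at Onecut2 and 3 at Cux2, nuclear factors of sex-dependent liver genes. The 2 peaks at Sh2b3 are also counted among the 3 at Cux2. On the EGF side there was 1 each at Nrg4, Adam10, Adam17, Sos1 and Eps15, and 2 each at Cblb and Lrig1, which both limit EGF receptor signalling. With MACS2 peaks counted, 35 of the 69 other pathway genes had a peak within 50 kb, against 29 with a common OS. The MACS2 list is also longer, with 5867 peaks against 4409 common OS. The share of all protein-coding genes with a MACS2 peak was not counted, so these counts cannot be read as particular to the pathways. SPP had 1 peak and no common OS at each of Socs4, Eps8 and Lrig3, and 4 peaks against 2 common OS at Cblb.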
